A study of Mus musculus with 34 samples.

Results

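The cytosolic ribosomal protein genes of the mouse were followed in heart and adipose tissue over 3 diets. Members were taken by gene symbol: names of the Rpl or Rps series followed by a digit, together with Rpsa, Rplp0, Rplp1 and Rplp2, without entries named as pseudogenes and without the Rps6k kinases. The rule gave 79 genes out of 15691 in the deposited expression tables of the 2 tissues. Of these, 78 were listed in adipose tissue and 69 in heart, with 68 in both. Rpl3l was listed in heart only. Rpl17, Rpl19, Rpl36, Rpl36a, Rps12, Rps13, Rps27, Rps27a, Rps27rt and Rps7 were listed in adipose tissue only. A symbol rule also takes in relatives that are not standard subunits. These were the paralogs Rpl3l, Rpl22l1, Rpl36al, Rps4l and Rps27l, the copies Rpl37rt and Rps27rt, and 2 genes that encode no subunit: Rpl7l1, a factor of ribosome assembly, and Rps19bp1, whose product binds ribosomal protein S19.

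The study used 18 mice of the C57BL/6J strain, with library ages of 20 to 22 months. Control mice (CNTR) ate a diet with 10% of its calories from fat. HFCD mice ate a high-fat, high-calorie diet with 60% of calories from fat. HFCD+FMD mice ate the same high-fat diet interrupted every 4 weeks by 5 days of a fasting mimicking diet, for 11 cycles. From cycle 6 onward, 2 days of control diet came between the fasting mimicking days and the return to high fat. Tissues were taken 4 days after the end of the last cycle, so an effect of repeated cycles and an effect of recent refeeding cannot be told apart. The labels do not say which fat depot was sampled, and give no transgene or mutant allele. Count columns could be matched to 13 adipose libraries (3 CNTR, 4 HFCD and 6 HFCD+FMD) and 14 heart libraries (5 CNTR, 5 HFCD and 4 HFCD+FMD).

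Ribosomal proteins of the large (Rpl) and small (Rps) subunit assemble with ribosomal RNA into the cytosolic ribosome, the machine that translates nuclear-encoded messages. The acidic stalk proteins Rplp0, Rplp1 and Rplp2 recruit the GTPases that drive elongation. Most of these messages begin with a terminal oligopyrimidine tract at their 5′ end, through which mTORC1 signalling sets their translation with nutrient supply, so that feeding can alter the protein output without altering the message level measured here. In heart and skeletal muscle, Rpl3l encodes a striated-muscle form of Rpl3, a protein that reaches toward the peptidyl transferase centre.

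The transcription start windows of 8 members are shown because the messages behind the results below begin there. The first 4 belong to messages that were lower in adipose tissue of HFCD mice, and the last 4 to messages at opposite ends of a difference between libraries. They were picked among members with a pyrimidine tract near the start: of the other members lower in HFCD, Rpl4, Rps28, Rps15 and Rps19bp1 had none within 5 bases, nor had Rpl41 and Rpl23 of the library difference. Each runs from 15 bases before the annotated start to 14 after it, on the gene's own strand, from RefSeq's promoter table (build GRCm38.p6), and the capitals mark a C followed by at least 4 pyrimidines. The windows lie at chr14:18270972-18271001 (minus strand) for Rpl15, chr16:33056467-33056496 (plus) for Rpl35a, chr14:24490663-24490692 (plus) for Rps24, chr17:24720048-24720077 (plus) for Rps2, chr10:128626492-128626521 (minus) for Rps26, chr7:4792950-4792979 (plus) for Rpl28, chr17:27635230-27635259 (minus) for Rps10 and chr7:141447636-141447665 (plus) for Rplp2.
Rpl15: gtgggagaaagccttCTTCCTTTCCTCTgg
Rpl35a: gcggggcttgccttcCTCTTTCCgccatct
Rps24: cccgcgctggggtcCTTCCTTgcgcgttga
Rps2: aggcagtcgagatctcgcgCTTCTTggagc
Rps26: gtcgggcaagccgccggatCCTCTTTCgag
Rpl28: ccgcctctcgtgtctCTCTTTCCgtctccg
Rps10: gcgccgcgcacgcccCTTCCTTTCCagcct
Rplp2: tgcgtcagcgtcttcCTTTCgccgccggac

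The search took the stretch nearest to the annotated start, and in several windows, such as those of Rpl15 and Rplp2, pyrimidines go on upstream of the capitals. The marked stretch lies at the annotated base in Rpl15, Rpl35a, Rpl28, Rps10 and Rplp2. In Rps24 it lies 1 base upstream, and in Rps2 and Rps26 it lies 4 bases downstream. Of the members, 61 had an entry in the promoter table (77.2%), which is under the 80% needed for a comparison over the set, so a comparison with all promoters is void and the shares are a description. On the gene's own strand, a tract at the start itself was found for 12 of the 61 (19.7%) and for 813 of all 27025 genes of the promoter table (3.01%). A gene with several entries counts once, by any of them. Allowing 5 bases on either side, the counts were 28 (45.9%) and 5718 (21.2%). The 69 genes of mitochondrial ribosomal proteins in the table had such a tract at the start in 0 cases and within 5 bases in 17 (24.6%). A match of letters is not evidence of regulation, and annotated starts can be off by a few bases. Among the 18 members without an entry were Rpl3, Rpl7, Rpl8, Rpl17, Rpl21, Rpl29, Rpl30, Rpl32, Rpl36, Rplp1, Rps4l, Rps14, Rps20 and Rps27a.

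Library totals ran from 15604982 to 40831656 counts in adipose tissue and from 16848195 to 47859170 in heart. Levels below are in CPM, counts scaled to a common library size of 1000000, after TMM scaling, a factor per library that centres most genes. In adipose tissue all 8 adipocyte markers were found, summing to 18190 to 48260 CPM. In heart all 7 ventricular cardiomyocyte markers were found, summing to 29630 to 58620 CPM. Detection alone does not separate the tissues. Heart also had 7 of the 8 adipocyte markers (559.1 to 1626 CPM), and adipose tissue all 7 ventricular ones (2.99 to 130.9 CPM). All 78 and all 69 members passed the low-count filter. Heart libraries fell into 3 sets by an offset that the authors' batch-corrected values had removed, and the tests in heart carry these sets as a factor. CNTR 2, 3 and 5 with HFCD 1 to 4 formed set A, CNTR 4 and 6 with HFCD+FMD 1 formed set B, and HFCD+FMD 2, 3 and 5 with HFCD 5 formed set C. What the sets stand for is not stated, and each comparison of diets rested mainly on 1 set. The labels do not state which mouse gave which library, so p-values measure the spread between these libraries. In whole tissue, fewer cells of a type and less RNA per cell cannot be told apart.

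Libraries were made from total RNA after removal of ribosomal RNA, and the members together took a small part of each. In adipose tissue their summed share of counts was 0.329% ± 0.0764 (SD, n = 3) in CNTR, 0.385% ± 0.0139 (n = 4) in HFCD and 0.435% ± 0.0366 (n = 6) in HFCD+FMD. Mitochondrially encoded genes took 12.6 to 29.3% of counts in the CNTR libraries, against 2.17 to 6.08% in HFCD and 2.20 to 7.48% in HFCD+FMD. With those genes left out of the total, the members' share was 0.406% ± 0.0591, 0.401% ± 0.0173 and 0.460% ± 0.0334 in the same order. In heart the share was 0.336% ± 0.0761 in CNTR (n = 5), 0.189% ± 0.0577 in HFCD (n = 5) and 0.226% ± 0.0868 in HFCD+FMD (n = 4). The mitochondrial share there was 21.8 to 32.6% in CNTR, 36.4 to 71.5% in HFCD and 29.5 to 62.0% in HFCD+FMD. Without mitochondrial genes the heart shares were 0.465% ± 0.123, 0.375% ± 0.0489 and 0.411% ± 0.0276, so the gap between diets narrowed. The ranges of the mitochondrial share did not overlap between CNTR and HFCD in either tissue, nor between CNTR and HFCD+FMD in adipose tissue. In those comparisons diet and mitochondrial share cannot be told apart, and the fits below that leave out libraries do not separate them. The part of the mitochondrial share in the results below was not tested beyond the fits without the libraries named there.

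Levels of the members differed widely. Per kilobase of exon in adipose tissue of CNTR mice, the stalk gene Rplp1 stood highest at 678 ± 100 CPM per kb (n = 3). It was followed by the large-subunit gene Rpl4 at 357 ± 30.5 and the small-subunit gene Rps15 at 236 ± 27.1. Further down, Rps26 at 167 ± 20.5 and Rpl8 at 166 ± 19.1 did not differ beyond their spread. The lowest were Rps13 at 0.399 ± 0.160, Rps7 at 0.375 ± 0.0981 and Rpl36a at 0.374 ± 0.1999, again within each other's spread. In heart of CNTR mice, Rps15 (193 ± 102), Rplp1 (187 ± 87.4), Rpl8 (161 ± 44.9), Rpl4 (150 ± 31.2), Rpl3l (123 ± 36.5) and Rplp0 (105 ± 29.1) led, and neighbours in that order overlapped (CPM per kb, n = 5). Rpl9, at 0.259 ± 0.0334 CPM per kb, was the lowest in heart. These levels are divided by the length of all annotated exons of a gene together, which can far exceed 1 message (6256 against 468 bases in Rps24), and the order depends on that length. Per kilobase of 1 reference transcript, Rplp1 (678 ± 100) and Rpl4 (466 ± 39.8) still led in adipose tissue, but Rps26 (380 ± 46.3) stood above Rps15 (259.8 ± 29.8), and in heart Rpl8 led at 257 ± 71.8.

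Many members share sequence with processed copies elsewhere in the genome. The share of a member's 50-base transcript windows that also occur in a transcript of another gene ran from 0% (Rpl3l and Rps19bp1 among others) to 98.7% (Rps27). Across members, the level per kilobase was lower where more windows were shared, with Spearman's rho of -0.588 over 78 members in adipose tissue and -0.50 over 69 in heart. These correlations are a description: the members come from the same libraries and are not independent. Since reads that fit several places can be dropped or divided in counting, levels are uncertain for members with a high shared share.

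**Figure D1:**
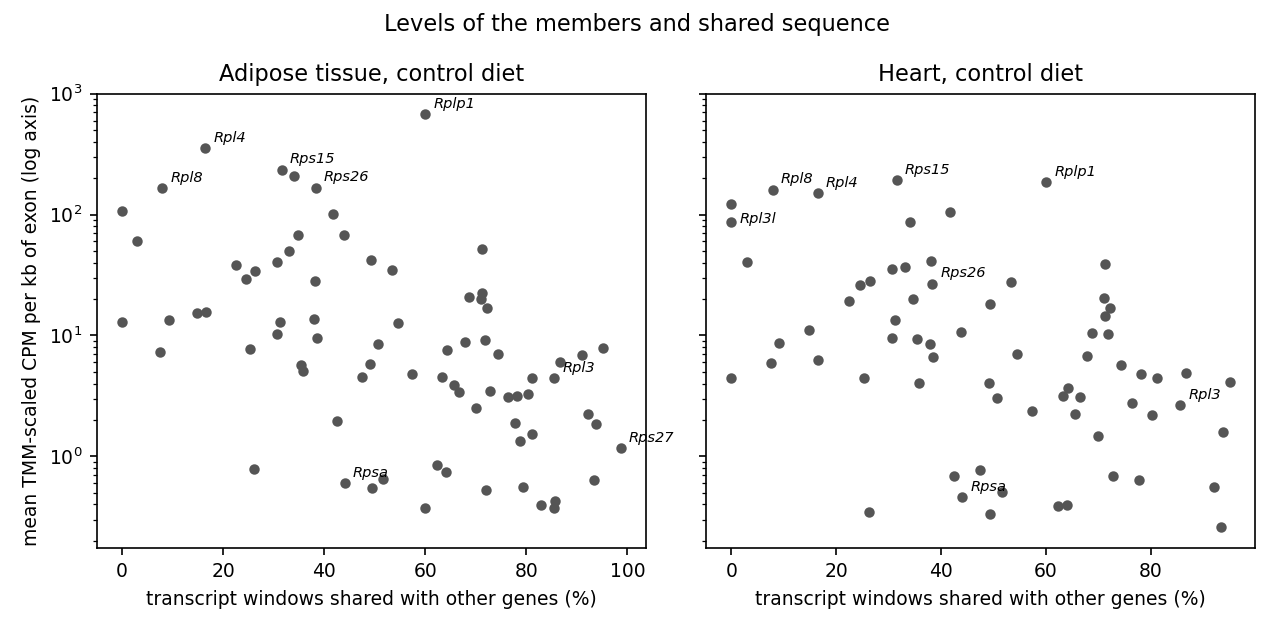
Mean level of each member in CNTR libraries (TMM-scaled CPM per kilobase of exon, log axis) against the percent of its 50-base windows shared with other genes, for adipose tissue and heart; each point is 1 member. Rpl3l (0%) and Rpl4 (16.5%) lie high and Rpl36a (85.5%) and Rpl9 (93.3%) low, though Rplp1 (60%) is among the highest and Rpl21 (26.2%) among the lowest in heart.

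Before any diet is compared, a difference between libraries has to be described, which was noticed after the values were seen. In both tissues some members were high in libraries where others were low. The small-subunit genes Rps26, whose loss of function causes Diamond-Blackfan anaemia, and Rps14, whose partial loss underlies the anaemia of the 5q- syndrome, show it most plainly. In adipose tissue, Rps26 had 235.8, 245.2 and 294.5 CPM in the CNTR libraries and 51.9, 56.9, 195.2 and 247.7 in HFCD 1 to 4. In the 6 HFCD+FMD libraries Rps26 ran from 76.1 to 237.9 CPM. Rps14 went the other way, with 70.4, 55.1 and 77.5 CPM in CNTR and 125.6, 125.5, 83.7 and 61.2 in HFCD 1 to 4. Its HFCD+FMD values ran from 65.5 to 148.0 CPM. HFCD 1, HFCD 2 and HFCD+FMD 6 were thus low in Rps26 and high in Rps14, and the diets overlapped in both genes.

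The ratio of Rps26 to Rps14 moved with the mitochondrial share of the library. In adipose tissue it was 0.413, 0.454 and 0.514 in HFCD 1, HFCD 2 and HFCD+FMD 6, the 3 libraries with the lowest mitochondrial share (2.17 to 2.29%). It was 3.35, 4.45 and 3.80 in the CNTR libraries, which had the highest. In heart the ratio was 7.05, 6.23, 6.48 and 3.85 in HFCD 3, HFCD+FMD 3, HFCD+FMD 5 and HFCD 5, the 4 libraries in which mitochondrial genes took 59.8 to 71.5% of counts. The other 10 heart libraries had ratios from 0.261 to 1.01. The diet comparisons below are therefore also given without these 3 adipose and 4 heart libraries. Why the libraries differ was not tested.

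**Figure D2:**
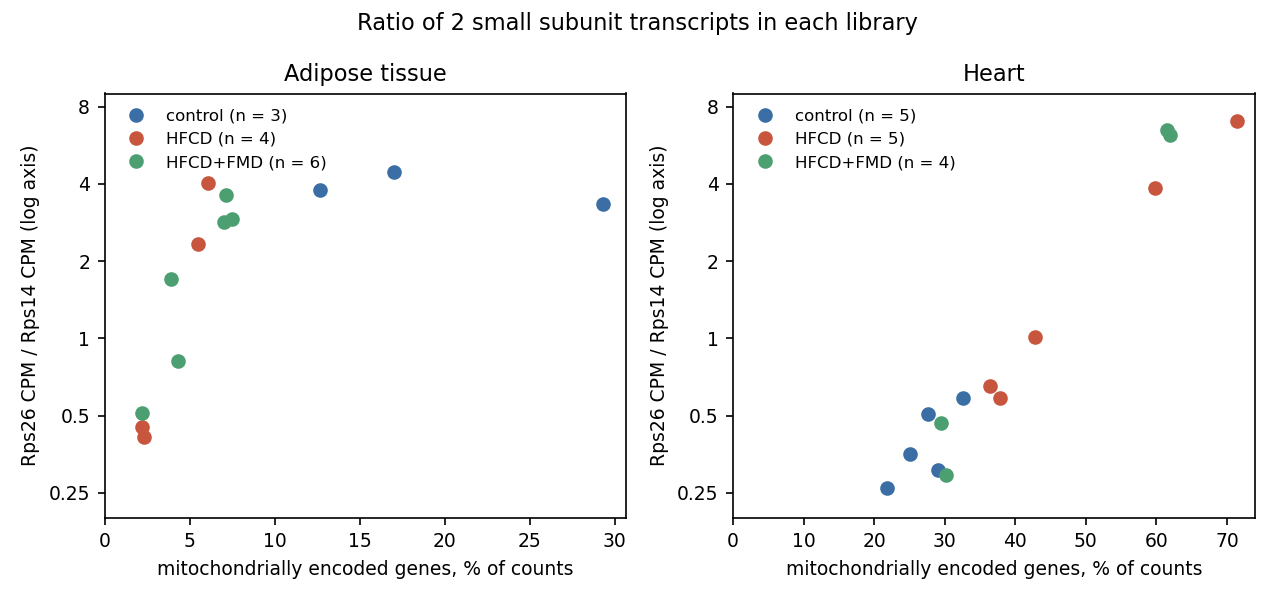
Ratio of Rps26 to Rps14 (log axis) against the percent of counts from mitochondrially encoded genes, for 13 adipose and 14 heart libraries, coloured by diet; each point is 1 library. The 4 heart libraries above 59% mitochondrial counts have ratios of 3.85 or more, and the 3 adipose libraries under 2.3% have ratios under 0.52.

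Other members varied along with this pair. Over members averaging at least 5 CPM, the first principal component of log2 levels held 72.7% of the variance between adipose libraries (57 members) and 67.4% between heart libraries (49 members). Loadings were positive for 37 and negative for 20 members in adipose tissue, and positive for 43 and negative for 6 in heart, so that in heart most members shared 1 direction. Rps26 had the most negative loading in both tissues (-0.35 in adipose tissue and -0.19 in heart), with Rpl41 and Rpl23 also at that end in both. At the other end stood Rps10, a small-subunit protein at the messenger entry side, with 0.25 in adipose tissue and 0.30 in heart, and Rps14 with 0.17 and 0.32. Across the 48 members used in both tissues the loadings ran in parallel (Pearson's r 0.872, Spearman's rho 0.880), which is a description over genes and not a test. Neither transcript length, GC content nor the shared share of windows followed the loadings closely, with rho between -0.102 and 0.237. The windows printed above, picked for their tract, include members of both ends, while Rpl41 and Rpl23 have no tract within 5 bases and Rps14 has no entry.

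**Figure D3:**
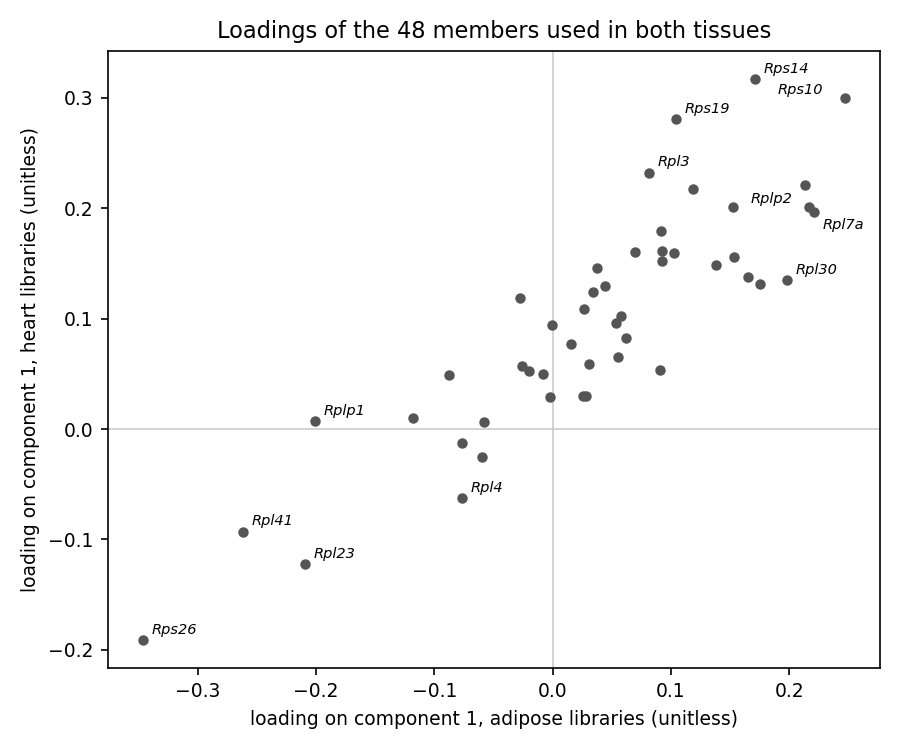
Loading of each of 48 members on the first principal component of log2 levels across adipose libraries (x axis) and across heart libraries (y axis, both unitless); each point is 1 member. Rps26 is at the lower left and Rps10 at the upper right, with Pearson's r of 0.872 over the points.

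The first diet comparison set HFCD against CNTR in adipose tissue. Among large-subunit genes Rpl3 rose and Rpl10a, a protein of the L1 stalk, rose. Rpl15, Rpl35a and Rpl4 fell, as did the small-subunit genes Rps24, Rps2, Rps28 and Rps15 and the S19-binding Rps19bp1. That made 2 of 78 members higher at an adjusted p under 0.05, where 15.7% of all 15112 genes tested were higher, and 8 lower, where 14.2% were. Both shares of members were below those of all genes. The members' median log2 fold change was -0.03, beside -0.001 over all genes, with 38 members above 0 and 40 below. By role, 2 of 40 large-subunit genes were called higher and 3 lower, 0 and 4 of 27 small-subunit genes, 0 of 3 stalk genes, 0 of 6 paralogs and 1, lower, of the 2 that are not subunits.

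Rps24 (ENSMUSG00000025290, chromosome 14, 24487125 to 24496959, GRCm38), a small-subunit gene also mutated in Diamond-Blackfan anaemia, moved most clearly. It had 157.4, 105.5 and 129.4 CPM in CNTR 1, 3 and 5 and 65.9, 69.4, 87.6 and 82.7 CPM in HFCD 1 to 4. Every HFCD library was below every CNTR library, and the log2 fold change was -0.78 (SE 0.15, adjusted p = 0.00391, edgeR quasi-likelihood test). Rps2 (ENSMUSG00000044533, chromosome 17, 24718116 to 24721929), which lines the messenger entry channel, had 99.6, 88.4 and 97.4 CPM in CNTR and 53.6, 53.6, 75.6 and 69.7 CPM in HFCD. Its groups did not overlap either, and it changed by -0.59 (SE 0.13, adjusted p = 0.00608). Rps19bp1 had 15.98, 13.38 and 12.55 CPM in CNTR and between 9.12 and 10.0 CPM in the 4 HFCD libraries, a change of -0.52 (SE 0.13, adjusted p = 0.00969). These 3 genes passed in each of 13 fits that left out 1 library, with the largest adjusted p at 0.024, 0.0271 and 0.0476.

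The other falls were smaller or leaned on single libraries. Rps15, of the small-subunit head, had 160.8, 129.1 and 155.9 CPM in CNTR and 114.6, 112.5, 127.5 and 104.8 CPM in HFCD (-0.37, SE 0.13, adjusted p = 0.0452). Rpl4, whose loop reaches into the exit tunnel, had 684.1, 679.4 and 787.8 CPM in CNTR and 451.6, 466.7, 591.2 and 607.0 CPM in HFCD (-0.44, SE 0.14, adjusted p = 0.0361). Neither pair of groups overlapped. Rpl15 went from 21.9 ± 1.14 CPM in CNTR to 14.8 ± 1.76 in HFCD (-0.56, SE 0.17, adjusted p = 0.0268), and Rpl35a, another Diamond-Blackfan gene, from 45.1 ± 2.96 to 34.4 ± 5.42 CPM (-0.39, SE 0.12, adjusted p = 0.0277), both without overlap. Rps28 had 17.8, 11.1 and 14.6 CPM in CNTR and 9.56, 9.67, 10.8 and 11.3 CPM in HFCD, so the groups overlapped (-0.49, SE 0.15, adjusted p = 0.0286). Without CNTR 1, which had the fewest counts and the highest mitochondrial share of the adipose libraries, 3 members were called instead of 10, and 5, 6 and 4 were called without CNTR 5, HFCD 1 and HFCD 2. The shares of all genes called in these and the other fits with libraries left out are not reported here. Changes in these counts are therefore not read as a result about the members. Rps15, Rps28, Rpl35a and Rpl15 were not called without CNTR 1, with adjusted p of 0.16, 0.15, 0.102 and 0.073. Rpl4 was not called there either, and lost its call in 5 of the 13 fits with 1 library left out. Its largest adjusted p was 0.0998, without CNTR 5.

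Rpl3 (ENSMUSG00000060036, chromosome 15, 80077791 to 80091868) went against the direction of most called members. It had 9.30, 15.5 and 17.7 CPM in CNTR 1, 3 and 5 and 22.3, 25.5, 33.4 and 23.8 CPM in HFCD 1 to 4, with no overlap. The log2 fold change was 0.88 (SE 0.24, adjusted p = 0.0162), and without CNTR 1 it was 0.66 with an adjusted p of 0.0662. Of its windows, 85.6% are shared with other genes, so its level is uncertain. Rpl10a had 4.45, 4.45 and 4.92 CPM in CNTR and 4.92, 7.34, 7.84 and 7.56 CPM in HFCD, so HFCD 1 stood at the CNTR level (0.58, SE 0.21, adjusted p = 0.0488). Its call was lost in 10 of the 13 fits with 1 library left out.

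Several larger fold changes in adipose tissue did not pass, and there the HFCD libraries split. The stalk gene Rplp1 had 331.8, 291.6 and 391.1 CPM in CNTR and 119.8, 117.3, 273.9 and 256.5 CPM in HFCD (-0.82, SE 0.31, adjusted p = 0.06). Its partner Rplp2 had 25.2, 17.3 and 21.8 CPM in CNTR and 40.4, 40.8, 19.4 and 13.6 CPM in HFCD. Rplp0, which anchors both to the large subunit, had 152.8, 150.8 and 197.1 CPM in CNTR and 165.3 to 195.1 CPM in HFCD. In HFCD 1 and 2, the Rplp1 level was low and the Rplp2 level high, which is the contrast between libraries described above. Rpl28 had 6.68, 10.1 and 8.15 CPM in CNTR and 1.99, 1.92, 5.07 and 5.78 CPM in HFCD, without overlap (-1.18, SE 0.48, adjusted p = 0.0791). Rps26 stood at -0.91 (SE 0.53, adjusted p = 0.209) between the diets. Without the 3 libraries of lowest mitochondrial share, 2 members were called: Rps24 at -0.62 (adjusted p = 0.0486) and Rpl10a at 0.74 (adjusted p = 0.0412). Rpl3 then stood at 1 (adjusted p = 0.053) and Rps2 at -0.39 (adjusted p = 0.0519).

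**Figure D4:**
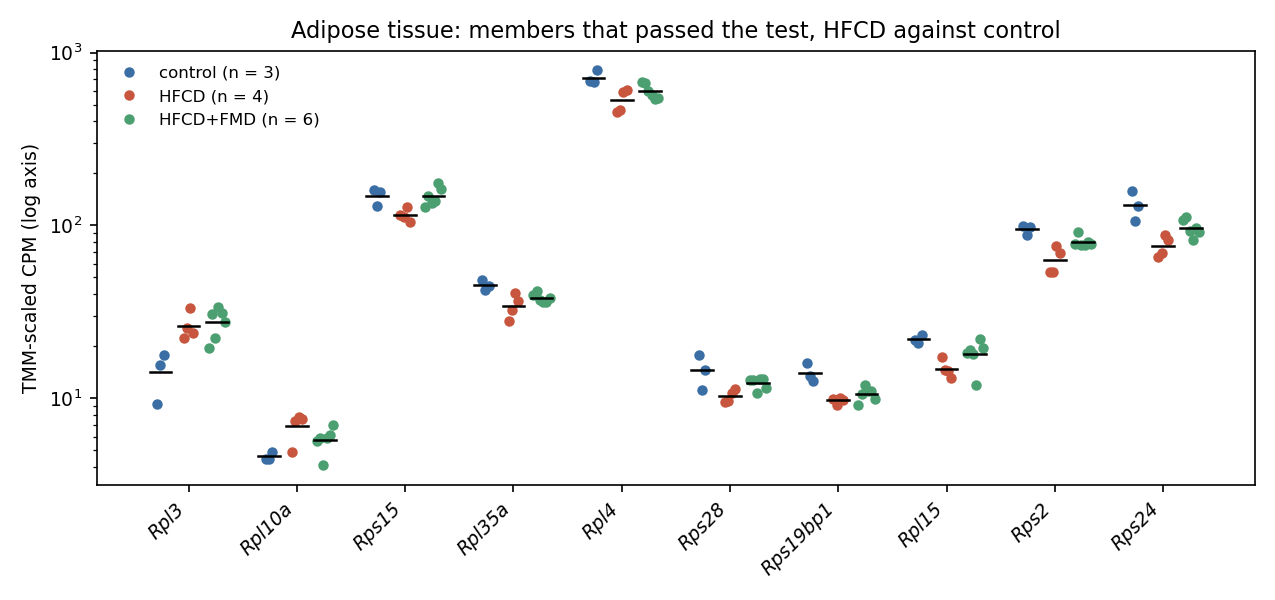
Adipose levels (TMM-scaled CPM) of the members called between HFCD and CNTR by diet; each point is 1 library and the black bar is the mean. Rpl3 and Rpl10a are higher and the other 8 lower in HFCD than in CNTR, though scaled by library totals alone Rpl35a and Rps15 are not lower (0.06 and 0.08 on the log2 scale).

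The direction of these calls depends on what the libraries are scaled to. With library totals alone, where mitochondrial counts enter the scale, the median of all genes moved to 0.444 above the TMM scale for HFCD against CNTR. On that scale 18 members were called higher and 0 lower, against 2 and 8. That was 23.1% of members, where 45.5% of all genes were called. Rpl35a and Rps15 then had values of 0.06 and 0.08, while Rps24 (-0.31) and Rps2 (-0.14) were below 0 but did not pass. Relative to all genes the members' median was -0.011 by library totals and -0.029 by TMM. Adipose composition also differed with diet. The 9 macrophage markers, all detected, summed to 320.4 to 1823 CPM in CNTR and 2405 to 5189 CPM in HFCD, the 8 adipocyte markers to 30210 to 48260 and 22890 to 27320 CPM, and the 6 markers of dividing cells to 15.4 to 24.9 and 89.8 to 157.2 CPM. In HFCD+FMD these sums were 1364 to 3778, 18190 to 25300 and 54.4 to 232.8 CPM, and their part in the results was not tested.

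Between HFCD+FMD and HFCD no member was called in adipose tissue. By edgeR 0 of 78 members passed, where 0.205% of all genes did, and DESeq2, limma-voom with and without quality weights and limma on the authors' log2 values also called 0. At an unadjusted p under 0.05 there were 5 members, all higher in HFCD+FMD, where 11.2% of all genes reached that level. Those named here were chosen after their values were seen. Rps15 had 127.0 to 174.8 CPM in the 6 HFCD+FMD libraries, with a mean of 147.8 ± 18.2, against 114.8 ± 9.39 in HFCD (0.36, SE 0.11, adjusted p = 0.239). Rps2 had 77.3 to 92.1 CPM in HFCD+FMD and 53.6 to 75.6 in HFCD, without overlap (0.35, SE 0.11, adjusted p = 0.263). Rps24 had 81.9 to 111.8 CPM in HFCD+FMD and 65.9 to 87.6 in HFCD (0.34, SE 0.13, adjusted p = 0.356). Rpl13a stood at 0.28 (adjusted p = 0.385). Without the 3 libraries of lowest mitochondrial share, Rps15 stood at 0.32, Rps2 at 0.155, Rps24 at 0.20 and Rpl13a at 0.17, with adjusted p from 0.579 to 0.728, and 0 members were called. Rps15, Rps2 and Rps24 are 3 of the 8 members lower in HFCD than in CNTR. The 2 comparisons share the HFCD libraries, so their values are set side by side and not related. The members' median was 0.055, beside 0.011 over all genes, with 51 above 0 and 27 below.

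Against CNTR, HFCD+FMD adipose tissue had Rpl3 higher and Rps19bp1 and Rps24 lower. That was 1 of 78 members higher, where 10.5% of all genes were, and 2 lower, where 9.25% were. Rpl3 had 19.5, 30.9, 22.4, 33.7, 31.1 and 27.6 CPM in HFCD+FMD 1 to 6, each above all CNTR libraries (0.94, SE 0.23, adjusted p = 0.0154). Rps19bp1 went from 13.97 ± 1.79 to 10.6 ± 0.940 CPM, without overlap (-0.40, SE 0.12, adjusted p = 0.0306). Rps24 went from 130.8 ± 26.02 to 96.9 ± 10.9 CPM and overlapped (-0.43, SE 0.14, adjusted p = 0.0454). Without CNTR 1, 0 members were called and Rpl3 stood at 0.73 (adjusted p = 0.0759) and Rps24 at -0.28 (-0.275, adjusted p = 0.253). Without the 3 libraries of lowest mitochondrial share Rpl3 alone was called, at 0.94 (adjusted p = 0.0454). Scaled by library totals alone, 29 members were called higher and 0 lower, Rps19bp1 and Rps24 stood at 0.08 and 0.05, and the median of all genes moved by 0.471. Those 29 were 37.2% of members, where 47.9% of all genes were called.

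In heart most members had lower levels in HFCD than in CNTR, and none of them passed the adjusted test. Of 69 members, 64 had a negative log2 fold change, and the median was -0.50, beside 0.005 over all genes. By edgeR 0 members passed, as did 0% of all 13230 genes. At an unadjusted p under 0.05 there were 27 members, all lower, where 12.8% of all genes reached that level in either direction. DESeq2 called Rpl39 (adjusted p = 0.0498), limma-voom called 0, and limma-voom with quality weights called Rpl39 (adjusted p = 0.0278) and Rplp2 (adjusted p = 0.0439). CNTR 2 had the highest summed share of members among the heart libraries, and without it the median was -0.207, with 50 of 69 below 0. Without the 4 libraries of highest mitochondrial share the median was -0.515, with 68 of 69 below 0, and within set A alone it was -0.649. HFCD 1, 2 and 4, left in the first of these fits, had 36.4, 42.7 and 37.8% mitochondrial counts. Each was still above every CNTR library (21.8 to 32.6%), so that fit does not separate diet from mitochondrial share. The 7 ventricular cardiomyocyte markers summed to 40240 to 58620 CPM in CNTR and 29630 to 39830 CPM in HFCD, without overlap. Atrial markers summed to 2134 CPM in 1 HFCD library and to at most 124.5 CPM in CNTR, and the part of either was not tested.

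Rpl39 (ENSMUSG00000079641, chromosome X, 37082520 to 37085402), a very small protein lining the peptide exit tunnel, had the smallest p. It had 10.4, 6.03, 12.3, 6.40 and 10.2 CPM in CNTR 2 to 6 and 4.01, 3.81, 5.16, 4.76 and 6.09 CPM in HFCD 1 to 5. Only HFCD 5 reached into the CNTR range, and the log2 fold change was -0.74 (SE 0.18, adjusted p = 0.347). Rpl35, beside the tunnel exit, had 6.48, 4.07, 7.14, 3.33 and 4.46 CPM in CNTR and 2.56, 1.76, 1.98, 2.24 and 4.22 CPM in HFCD (-0.93, SE 0.25, adjusted p = 0.367). The stalk gene Rplp2 had 27.5, 22.4, 21.95, 15.02 and 12.75 CPM in CNTR and 10.9, 8.15, 5.32, 10.8 and 8.75 CPM in HFCD, so every HFCD library was below every CNTR library (-1.02, SE 0.28, adjusted p = 0.367). The stalk genes differed among themselves. Rplp0 went from 138.3 to 257.1 CPM in CNTR to 72.7 to 142.7 CPM in HFCD (-0.45), while Rplp1 had 57.4 to 168.8 CPM in CNTR and 60.1 to 70.3 CPM in HFCD 1 to 4, with 177.9 CPM in HFCD 5. Without the 4 libraries of highest mitochondrial share Rpl39 stood at -0.86, Rpl35 at -1.08, Rplp2 at -1.13 and Rplp0 at -0.44. Without CNTR 2 alone, Rplp0 stood at -0.16.

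Groups also did not overlap for the small-subunit genes Rps10 and Rps4x in heart. Rps10 had 14.3, 9.59, 14.04, 8.05 and 9.13 CPM in CNTR and 4.91, 3.93, 2.22, 5.17 and 3.26 CPM in HFCD (-1.17, SE 0.39, adjusted p = 0.367). Rps4x, the X-linked form of S4, had 27.8, 25.3, 32.5, 22.5 and 28.8 CPM in CNTR and 19.2, 13.1, 9.28, 18.4 and 16.1 CPM in HFCD (-0.65, SE 0.23, adjusted p = 0.367). Of the paralogs, Rpl22l1 had 2.96 to 5.95 CPM in CNTR and 1.75 to 2.69 CPM in HFCD, again without overlap (-0.87, SE 0.28, adjusted p = 0.367). Its partner Rpl22 had 63.7 to 94.0 CPM and 43.2 to 58.9 CPM (-0.39, adjusted p = 0.385), and stood at -0.22 without CNTR 2. Without the 4 libraries of highest mitochondrial share Rps10 stood at -1.19, Rps4x at -0.585, Rpl22l1 at -0.865 and Rpl22 at -0.37. The members with the highest fold changes in heart were Rpl28 (0.51), Rps26 (0.26) and Rpl23 (0.14), which also lie at the Rps26 end of the contrast between libraries in adipose tissue.

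**Figure D5:**
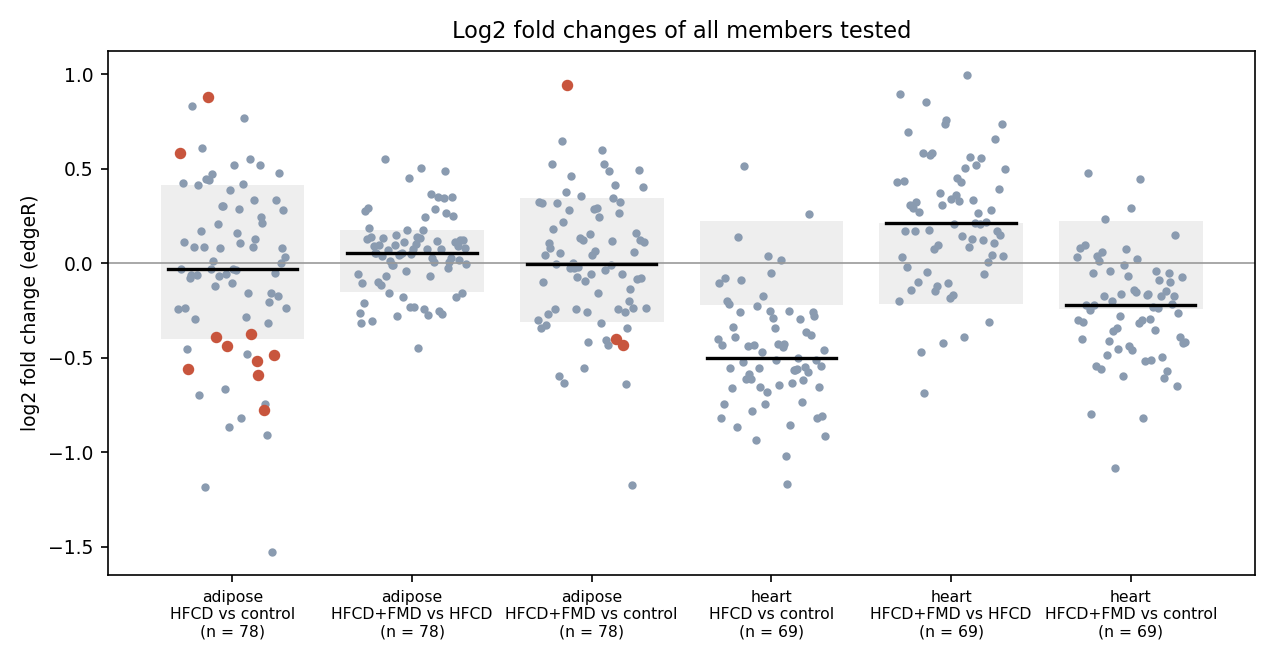
Log2 fold change of each member in 3 diet comparisons in adipose tissue and in heart; each point is 1 member, red where the adjusted p is under 0.05, the black bar is the members' median and the grey box the interquartile range of all genes tested. The heart medians are -0.50 for HFCD against CNTR, 0.21 for HFCD+FMD against HFCD and -0.22 for HFCD+FMD against CNTR, with no red point, while the adipose medians lie within 0.06 of 0 on the TMM scale (0.43 and 0.48 for the 2 comparisons with CNTR by library totals alone).

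With fasting mimicking cycles, Rpl39 in heart was higher than under the high-fat diet alone without passing the adjusted test. It had 11.9, 10.3, 8.34 and 10.2 CPM in HFCD+FMD 1, 2, 3 and 5, all above the 5 HFCD libraries and within the CNTR range (0.74, SE 0.24, adjusted p = 0.226). Within set C alone the change was 0.67, and without a library-set factor 1.10 (1.095). By edgeR 0 of 69 members passed, where 0.106% of all genes did, and 6 had an unadjusted p under 0.05, where 11% of all genes did. All 6 were higher in HFCD+FMD, and they are named after their values were seen: Rpl39, Rpl15 (0.69, adjusted p = 0.212), Rps3a1 (0.66, adjusted p = 0.363), Rpl3l (0.76, adjusted p = 0.388), Rpl29 (0.85, adjusted p = 0.40) and Rpl7l1 (0.45, adjusted p = 0.439). DESeq2 and limma-voom, with and without quality weights, called 0, and limma on the authors' batch-corrected log2 values called 5, all higher, among them Rpl39, Rpl3l and Rpl29. In that last fit the set term had been taken out beforehand and is not counted, so its adjusted p can be too small. Its share of calls over all genes is not reported here. Without the 4 libraries of highest mitochondrial share these 6 stood between 0.44 (Rpl3l) and 1.03 (Rpl29). That fit, like any without HFCD 5, leaves only HFCD+FMD libraries in set C. With the set factor its HFCD+FMD values then rest on HFCD+FMD 1 alone. Rpl7l1 stood at 0.29 without HFCD+FMD 1 and at 0.71 without HFCD 5. The members' median was 0.21 (53 of 69 above 0), beside 0.002 over all genes. That median had no stable sign: it was -0.069 without HFCD+FMD 1, 0.651 without HFCD 5, -0.056 within set C and 0.548 without the 4 libraries of highest mitochondrial share. Each of these rests on 1 library: 0.651 and 0.548 on HFCD+FMD 1, and -0.069 and -0.056 on HFCD 5 as the only HFCD library of set C.

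Against CNTR, HFCD+FMD heart had a members' median of -0.22, with 56 of 69 below 0. By edgeR 0 members passed, where 0.0227% of all genes did, and 3 had an unadjusted p under 0.05, where 9.48% of all genes did. These were Rpl35 (-1.08, SE 0.33, adjusted p = 0.287), Rplp1 (-0.82, SE 0.37, adjusted p = 0.52) and Rpl15 (0.48, SE 0.22, adjusted p = 0.521). Rpl35 had 3.66, 2.45, 2.94 and 3.58 CPM in HFCD+FMD, which overlapped the CNTR values given above. It stood at -0.67 without HFCD 5, at -1.60 without HFCD+FMD 1 and at -0.69 without a library-set factor. Without the 4 libraries of highest mitochondrial share Rpl35 stood at -0.67, Rplp1 at 0.01 and Rpl15 at 0.34. DESeq2 and limma-voom called 0, and limma on the authors' batch-corrected values called Rpl35 (adjusted p = 0.0118) and Rpl15 (adjusted p = 0.0432). As above, that last fit does not count the set term, so these adjusted p can be too small. The value of Rplp1 rested on HFCD 5, which ties set C to the other libraries: without it the change was 0.009. Every fit without HFCD 5, including that without the 4 libraries of highest mitochondrial share, takes its HFCD+FMD values from HFCD+FMD 1 alone. The median ran from -0.617 without HFCD+FMD 1 to 0.044 without HFCD 5, and was 0.045 within set B, where HFCD+FMD 1 is the only HFCD+FMD library.

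Rpl3 and its muscle paralog Rpl3l (ENSMUSG00000002500, chromosome 17, 24727820 to 24736143) were read side by side in heart. Rpl3l had 302.9, 156.3, 207.2, 162.4 and 178.2 CPM in CNTR 2 to 6, and 145.3, 147.4, 81.9, 157.3 and 80.3 CPM in HFCD 1 to 5. In HFCD+FMD it had 188.7, 168.4, 147.4 and 118.0 CPM. HFCD 3 and 5 were the lowest of all, and CNTR overlapped HFCD only through CNTR 3 (-0.68, SE 0.23, adjusted p = 0.367). The Rpl3l value was -0.39 without CNTR 2, -0.48 without the 4 libraries of highest mitochondrial share and -0.23 by limma-voom with quality weights. Rpl3 had 13.4, 6.19, 7.95, 9.15 and 5.64 CPM in CNTR, 8.27, 7.40, 1.67, 6.67 and 5.52 in HFCD, and 7.02, 6.87, 2.73 and 1.76 in HFCD+FMD. Per kilobase, Rpl3l stood 47.7 ± 9.80 times above Rpl3 in CNTR hearts (range 34.3 to 61.1, n = 5), 48.2 ± 26.9 times in HFCD and 83.4 ± 40.3 times in HFCD+FMD, with ranges that overlapped. These ratios are uncertain because 85.6% of the windows of Rpl3 and 0% of those of Rpl3l are shared with other genes. The ratio of Rpl22l1 to Rpl22 per kilobase was 0.135 ± 0.0439 in adipose tissue of CNTR mice (n = 3) and 0.0842 ± 0.0123 in heart (n = 5). Per kilobase of 1 reference transcript these CNTR ratios were 32.2 ± 6.63 for Rpl3l to Rpl3, and 0.0790 ± 0.0258 and 0.0494 ± 0.00722 for Rpl22l1 to Rpl22.

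Rpl37rt, a retrotransposed copy of Rpl37, followed the library sets in heart and not the diets, a pattern picked out after its values were seen. It had 2.41, 5.45 and 5.75 CPM in HFCD+FMD 2, 3 and 5 and 5.82 CPM in HFCD 5, which make up set C. In the other 10 heart libraries Rpl37rt had between 0.262 and 0.954 CPM. Per kilobase and relative to Rpl37, it ranged from 0.0263 to 0.0877 in CNTR hearts. The range was 0.0460 to 0.926 in HFCD and 0.0349 to 1.202 in HFCD+FMD.

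Between tissues on the control diet, 17 of 68 members were higher in heart, where 31.2% of all genes tested were, and 8 were lower, where 32.7% were. This fit has no library-set factor and treats the tissues as independent. With 27 libraries from 18 mice, some mice gave more than 1 library, and the p-values ignore that. Rplp0 had 240.5 ± 71.9 CPM in heart and 123.1 ± 19.6 CPM in adipose tissue (0.97, SE 0.23, adjusted p = 0.000835), on a TMM scale shared by both tissues. Rpl22 had 105.6 ± 20.9 and 63.0 ± 5.59 CPM (adjusted p = 0.000889). Rps14 (1.46, adjusted p = 0.012) and Rps10 (1.49, adjusted p = 0.0118) were higher in heart too. Lower in heart were Rps25, of the small-subunit head, with 2.55 ± 0.879 against 6.88 ± 1.28 CPM (-1.45, adjusted p = 0.000456), and Rpl41, with 17.4 ± 9.90 against 58.8 ± 6.89 CPM (-1.76, adjusted p = 0.00175). Rps26 (-1.73, adjusted p = 0.00854), Rpl28 (-1.66, adjusted p = 0.00958) and Rpl10 (-1.09, adjusted p = 0.00105) were lower as well. Rps26, Rpl41, Rpl28 and Rps25 lie at one end of the contrast between adipose libraries, and Rps10 and Rps14 at the other. With library totals alone 12 members were called, 1 higher and 11 lower, which was 17.6% of members where 50.4% of all genes were called. Without the 7 libraries of extreme mitochondrial share named above, none of which is a CNTR library, 26 of the 68 were higher and 9 lower. The share of all genes called in that fit is not reported here, so these counts are not read as a result about the members.

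Whether the difference between diets itself differed between the 2 tissues was tested by an interaction, taken as the change in heart less the change in adipose tissue. Like the comparison of tissues, this fit has no library-set factor, so diet and library set are mixed in its heart part. It also treats libraries of the 2 tissues as independent, although some mice gave more than 1. For HFCD against CNTR, 12 of 68 members passed, where 22% of all genes did. For 11 of them the change in heart was the more negative, among them Rps10 (-2.26), Rplp2 (-1.60), Rps20 (-1.50), Rpl32 (-1.50), Rpl22l1 (-1.38), Rps4x (-1.33), Rpl29 (-1.30), Rpl37 (-1.10), Rps18 (-1.03) and Rpl39 (-0.88). Rpl28 went the other way (2.14), and adjusted p ran from 0.0131 to 0.0423. The median over members was -0.60, beside -0.017 over all genes. By limma-voom 6 were called, and without adipose CNTR 1, CNTR 3, HFCD 1 or HFCD 2 there were 3, 5, 5 and 4. Without the 7 libraries of extreme mitochondrial share 2 passed, Rps20 at -1.01 (-1.015, adjusted p = 0.0474) and Rps10 at -1.27 (adjusted p = 0.0476), and Rpl28 stood at 0.64 (adjusted p = 0.461). For HFCD+FMD against HFCD, 0 members passed by edgeR and 0 by limma-voom, where 0.0159% of all genes did by edgeR, and 6 had an unadjusted p under 0.05, where 8.71% of all genes did. For HFCD+FMD against CNTR, Rpl3 (-1.82, SE 0.54, adjusted p = 0.0232) and Rpl37rt (3.35, SE 1.02, adjusted p = 0.0269) passed, where 17.1% of all genes did. Without the 7 libraries they stood at -1.23 (adjusted p = 0.103) and 2.10 (2.095, adjusted p = 0.0935), and 0 members passed. Leaving out heart HFCD+FMD 3 or 5 alone also gave 0 calls, and leaving out HFCD+FMD 1 gave 13. With the library sets as a factor, an alternative added after seeing the data, 4 members passed for HFCD against CNTR: Rps20 (-1.28), Rps4x (-1.15), Rps10 (-1.96) and Rpl32 (-1.28, -1.276), with adjusted p from 0.0368 to 0.0477. For HFCD+FMD against CNTR 0 passed in that fit, with Rpl3 at -1.42 (adjusted p = 0.188) and Rpl37rt, which followed set C, at -0.009 (adjusted p = 0.996). By library totals alone the counts were 46 lower and 0 higher for HFCD, and 36 lower and 1 higher for HFCD+FMD, each against CNTR. Over all genes 49.9% and 49.1% were called on that scale. For the interactions by limma-voom, with libraries left out or with library sets as a factor, the shares of all genes called are not reported here. The counts in those fits are therefore not read as a result about the members.

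Other genes of the translation machinery in adipose tissue were read from 8 lists, chosen with earlier results of these data known. Their counts stand beside 15.7% of all genes higher and 14.2% lower for HFCD against CNTR, and several are near or below those shares. Between HFCD and CNTR, 1 of 25 other messages known to carry an oligopyrimidine tract was higher and 5 were lower, with a median of -0.21. Lower were the elongation factor subunit Eef1d (-0.44, adjusted p = 0.0046), Naca (-0.52, adjusted p = 0.00997), Eif2s3x (-0.48, adjusted p = 0.0137) and Npm1 (-0.34, adjusted p = 0.0275). Of 35 initiation factor genes and their kinases, 1 was higher and 6 were lower, among the latter the cap-binding Eif4e (-0.47, adjusted p = 0.00391). Of 49 ribosome biogenesis genes 4 were lower and 0 higher, led by the pseudouridine synthase Dkc1 (-0.94, adjusted p = 0.00104) and its partner Nop10 (-0.73, adjusted p = 0.00711). All 11 host genes of small nucleolar RNAs had negative fold changes and 6 passed, with a median of -0.58 (-0.585), among them Gas5 (-0.59, adjusted p = 0.0208) and Snhg12 (-0.79, adjusted p = 0.0147). In the mTORC1 list 2 of 29 were higher and 4 lower. These included the translation inhibitor Eif4ebp1 (-0.92, adjusted p = 0.00895), Nprl2 of the GATOR1 complex (-0.59, adjusted p = 0.00684) and the kinase Rps6ka1 (1.17, adjusted p = 0.00286). Of 15 RNA polymerase I genes 1 passed, Znrd1 (-0.53, adjusted p = 0.0224). These values are relative to the TMM scale, from which library totals alone differed by 0.444 at the median gene.

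In HFCD+FMD against CNTR, 3 of the 25 messages with a tract were lower (Eif3e, Ubxn1 and Naca), 4 of the initiation list, 4 of ribosome biogenesis including Dkc1 (-0.46, adjusted p = 0.0248), and 6 of the 11 small nucleolar RNA hosts, led by Epb41l4aos (-1.22, adjusted p = 0.00372). No gene of these lists was higher, and of all genes 10.5% were higher and 9.25% lower. In the mTORC1 list Rps6ka1 (0.96, adjusted p = 0.00885) and Rptor (0.35, adjusted p = 0.0447), the scaffold of mTORC1, were higher and Tbc1d7 of the tuberous sclerosis complex was lower (-0.50, adjusted p = 0.0182). Between HFCD+FMD and HFCD, 0 genes of the 8 lists passed by edgeR in adipose tissue. At an unadjusted p under 0.05 there were 25 of 77 mitochondrial ribosomal protein genes and 31 of 79 oxidative phosphorylation genes, all higher in HFCD+FMD, where 11.2% of all genes reached that level. In heart, 1 gene of the lists passed in any diet comparison, Myc, a transcription factor that drives ribosome production, which was lower in HFCD+FMD than in HFCD (-2.33, SE 0.38, adjusted p = 0.0392). In that comparison 0.106% of all genes passed. It leans on set C, where HFCD 5 is the only HFCD library, and a Myc value without HFCD 5 is not reported here.

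Mitochondrial ribosomal proteins, which translate the messages of the organelle's own genome, were read for comparison. Of 77 mitochondrial ribosomal protein genes tested in adipose tissue, 38 were lower and 0 higher in HFCD than in CNTR, where 14.2% of all genes were lower, with a median of -0.43. For 79 nuclear genes of oxidative phosphorylation, 49 were lower and 1 higher, with a median of -0.70. In HFCD+FMD against CNTR these counts were 12 lower of the ribosomal and 23 lower and 1 higher of the oxidative genes, where 9.25% of all genes were lower. In heart between HFCD and CNTR 0 genes of these lists passed by edgeR, while 74 of 77 mitochondrial ribosomal protein genes (median -0.36) and 81 of 85 oxidative genes (median -0.53) were below 0, as were 64 of the 69 cytosolic members. At an unadjusted p under 0.05 there were 23 of the former and 36 of the latter, all lower, where 12.8% of all genes reached that level in either direction. Messages with an oligopyrimidine tract outside the ribosome had a median of -0.03 (-0.025) in heart, and ribosome biogenesis genes one of 0.005.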

How the data were processed

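Total RNA from heart and adipose tissue was sequenced after ribosomal RNA removal, per the labels; of 34 labelled libraries 27 could be matched to a column and 7 were not analysed here. The deposited count tables hold whole-number read counts per gene, and the authors also deposited log2 values, for heart with an offset per gene and library set taken out, as read from the values. The submitters' processing notes name STAR 2.5.3, mm10, R 3.5.3, edgeR and limma. The counting tool and annotation are not given in the sources used here. No other sample columns were used (0).

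Counts were fitted in R 4.3.3 with edgeR 4.0.16: TMM scaling, filterByExpr (15112 of 15145 adipose genes, 13230 of 13238 heart genes and 12606 genes in the joint fit kept), prior count 2, and robust quasi-likelihood F-tests (two-sided) on all 3 diets of a tissue, with Benjamini-Hochberg adjustment over all genes at 0.05. Heart fits held a factor for library sets, recovered from the offsets per gene between the authors' heart log2 values and log2 CPM computed from the counts (equal within a set to 9.8e-09). The joint fit of both tissues held no such factor, and one with it was an alternative. Means and SDs are of CPM without that factor. Exon lengths, coordinates and shared 50-base windows came from GENCODE M21 (GRCm38), and start sequences from RefSeq. Alternatives were DESeq2 1.42.0, limma 3.58.1 with voom, other scalings and filters, age as a covariate, and libraries or sets left out. Leaving out the libraries of extreme mitochondrial share and the set factor in the joint fit were chosen after seeing the data. Replicates were numbered in accession order. The code was tested on simulated data.

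The members and lists were chosen with earlier results of these data known. Named members were up to 10 per direction with the smallest p among those that passed, the 3 largest and 3 smallest fold changes among members at 1 CPM or more, a short list always read (the stalk genes and paralog pairs) and up to 4 per list that passed; any other is said to be chosen after its values were seen. Some members' own values are not reported here.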

Additional observations from a re-analysis of the deposited data

Results flagged for a closer look

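In 5 of 88 groups of 4 to 6 libraries checked (5.68%), 1 library stood far from the others of its diet, while chance alone gives about 1 in 20. Rpl10a in adipose HFCD 1 was low at 4.92 CPM, against 7.34 to 7.84 in HFCD 2 to 4. Rps2 in adipose HFCD+FMD 2 was high at 92.1 CPM, against 77.26 to 79.97 in the others. In heart, Rplp1 was high in CNTR 2 at 168.8 CPM (others 57.4 to 87.4) and in HFCD 5 at 177.9 CPM (others 60.1 to 70.3). Rplp0 was low in heart HFCD 3 at 72.7 CPM, against 128.5 to 142.7.

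For 13 named member differences the interaction of tissue and diet passed the test in the joint fit, which has no library-set factor. For HFCD against CNTR the values were -2.26 for Rps10, -1.60 for Rplp2, -1.50 for Rps20 (-1.497), -1.50 for Rpl32 (-1.499), -1.38 for Rpl22l1, -1.33 for Rps4x, -1.30 for Rpl29, -1.10 for Rpl37, -1.03 for Rps18, -0.88 for Rpl39 and 2.14 for Rpl28. For HFCD+FMD against CNTR they were -1.82 for Rpl3 and 3.35 for Rpl37rt. With the library sets as a factor Rps20, Rps4x, Rps10 and Rpl32 still passed, and Rpl37rt stood at -0.009. Without the 7 libraries of extreme mitochondrial share only Rps20 and Rps10 passed.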

How the results depend on the processing

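By library totals alone, members called became 18 for adipose HFCD against CNTR (median 0.433), 29 for adipose HFCD+FMD against CNTR (median 0.484), 12 between tissues, 46 for the HFCD interaction and 37 for the HFCD+FMD against CNTR interaction, and the heart HFCD median became -0.827. Of all genes 45.5%, 47.9%, 50.4%, 49.9% and 49.1% were called by library totals, in the order of those counts. For the other alternative fits in this section the shares of all genes called are not reported here. Their counts are therefore not read as a result about the members. On that scale the adipose values turned positive for Rpl35a (0.063) and Rps15 (0.084) in HFCD, and for Rps19bp1 (0.084) and Rps24 (0.054) in HFCD+FMD, each against CNTR. Fitting only the diets compared gave 5 calls for adipose HFCD against CNTR and 1 for HFCD+FMD against CNTR, and leaving out the 3 libraries of lowest mitochondrial share gave 2 and 1. Without those and the 4 heart libraries of highest mitochondrial share, the HFCD interaction had 2 calls and the HFCD+FMD against CNTR interaction 0. With library sets as a factor these were 4 and 0, and Rpl37rt stood at -0.009 in the latter. Limma-voom gave 1 call for adipose HFCD+FMD against CNTR and 6 for the HFCD interaction. In heart HFCD against CNTR, DESeq2 called 1 member and limma-voom with quality weights 2, with a median of -0.213. Limma on the authors' log2 values, which does not count the set term taken out of them, called 5 members for heart HFCD+FMD against HFCD and 2 against CNTR. Heart Rplp1 in HFCD+FMD against CNTR was 0.009 with only those diets and without HFCD 5, 0.01 without the 4 libraries of highest mitochondrial share and 0.011 within set B, with a lowest value of -1.867 without HFCD+FMD 1. All but the last of these values rest on HFCD+FMD 1 alone. With each library left out in turn, adipose HFCD against CNTR kept 3 to 13 calls (median -0.095 to 0.07), HFCD+FMD against CNTR 0 to 3 (-0.052 to 0.074), and HFCD+FMD against HFCD 0 to 0 (-0.012 to 0.102). In heart the medians ran from -0.647 to -0.207, from -0.069 to 0.651 for HFCD+FMD against HFCD, and from -0.617 to 0.044 against CNTR. The values of 0.651 and 0.044 come from the fit without HFCD 5, in which HFCD+FMD rests on HFCD+FMD 1 alone. Calls between tissues ran from 18 to 31, for the HFCD interaction from 3 to 18 and for the HFCD+FMD against CNTR interaction from 0 to 13. The cause of these moves was not tested. No paired analysis was possible because the labels give no replicate numbers shared by the groups, and the numbers used follow accession order. Members under 1 CPM rest on few counts, and 7 labelled libraries were not analysed here.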
